A study of Mus musculus with 16 samples.

Results

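The 10 genes described here belong to Notch signalling and were followed in single-cell transcriptomes of mouse colon tumour organoids with and without KMT9: the receptor genes Notch1, Notch2 and Notch3, the ligand genes Jag1, Jag2 and Dll1, the response genes Hes1, Nrarp and Dtx4, and the secretory fate gene Atoh1. They were found by symbol among the 31053 genes of the deposited count matrices, where each of the 10 stood on 1 row. The organoids, epithelial cultures that grow in 3 dimensions, were grown from AOM/DSS tumours, which azoxymethane and dextran sodium sulfate induce, and were at passage 14. The knockout library is labelled plus TAM and KMT9ko/ko, and the control library minus TAM and KMT9wt/wt. The names of the deposited tables add day 5. Each group has 8 sequencing records that make up 1 library, so no test across replicates was possible and every difference describes these 2 libraries. The labels pair the deletion with TAM, so the effects of the deletion and of TAM cannot be told apart. What drives the deletion, and whether the organoids stem from 1 line, was not stated in the sources used here.

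Notch signalling runs between touching cells. A ligand of the Jagged or Delta type on 1 cell binds a Notch receptor on its neighbour, the receptor is cut, and its freed inner part enters the nucleus and turns on genes together with RBPJ. In the intestinal crypt this switches on Hes1, whose product represses Atoh1, the transcription factor that commits cells to the goblet, enteroendocrine and Paneth lineages. Cells with active Notch thereby stay in the absorptive or stem cell pool, and Atoh1-positive cells present Delta ligands to them.

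After filtering, 1481 knockout and 2629 control cells remained, with 37358097 and 68605296 UMIs, the molecular tags that mark each captured transcript once, and medians of 24184 and 24603 UMIs per cell. N6amt1, which encodes the KMT9 alpha subunit, stood at 6.13 CPM (UMIs of a gene per 1000000 UMIs of the library) in the knockout library and 34.1 CPM in the control library. All 5 epithelial markers were detected, and the summed level of 5 fibroblast markers was 0.268 CPM in the knockout and 0.117 CPM in the control library, with Col1a2, Col3a1 and Dcn at 0. The summed level of 4 endothelial markers, of which Kdr was at 0, was 20.2 CPM in the knockout and 10.4 CPM in the control library, and that of 5 immune markers, of which Cd3e was at 0, was 14.5 and 10.4 CPM. These sums are as high as most Notch genes, and their part in the results was not tested. Of the kept cells, 324 knockout and 167 control cells carried a barcode that also occurs in the other matrix, and values without them are given beside the results they bear on. Intervals are 95% intervals for counting error only.

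The promoters of 8 of the 10 genes were found in RefSeq's table (GRCm38.p6, 250 bases before the start of transcription and 50 from it on). Shown are those of Nrarp and Notch1, which differed in how their levels compared between the libraries, and of Atoh1, the gene that HES1 represses. Capitals mark the N box, a HES1 binding motif, searched as CACNAG on both strands, with overlapping matches joined.
Nrarp, chr2:25180508-25180807, plus strand: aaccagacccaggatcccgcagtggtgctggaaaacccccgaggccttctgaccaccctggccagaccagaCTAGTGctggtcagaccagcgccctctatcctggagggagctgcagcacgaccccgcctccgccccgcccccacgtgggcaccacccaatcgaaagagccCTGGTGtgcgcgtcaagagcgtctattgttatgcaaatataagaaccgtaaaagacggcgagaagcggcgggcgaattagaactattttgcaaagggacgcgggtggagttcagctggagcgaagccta
Notch1, chr2:26503773-26504072, minus strand: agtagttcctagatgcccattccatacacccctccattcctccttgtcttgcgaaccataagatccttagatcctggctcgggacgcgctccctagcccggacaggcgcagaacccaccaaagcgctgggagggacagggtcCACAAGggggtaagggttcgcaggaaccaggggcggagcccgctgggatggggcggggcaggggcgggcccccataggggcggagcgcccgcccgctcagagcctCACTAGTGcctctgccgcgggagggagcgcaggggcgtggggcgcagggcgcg
Atoh1, chr6:64728875-64729174, plus strand: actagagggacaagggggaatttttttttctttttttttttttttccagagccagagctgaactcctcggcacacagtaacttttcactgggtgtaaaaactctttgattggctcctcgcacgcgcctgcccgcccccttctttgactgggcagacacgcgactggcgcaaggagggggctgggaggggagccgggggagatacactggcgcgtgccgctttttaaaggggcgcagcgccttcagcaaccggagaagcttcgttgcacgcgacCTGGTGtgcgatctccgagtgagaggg
Counting the first transcribed base as 0, the matches begin at -179 and -79 in Nrarp, at -108, -3 and -1 in Notch1, where the last 2 overlap, and at 23 in Atoh1. An N box occurred in 6 of the 9 promoters of these genes and in 42.5% of all 32851 promoters of the same length. The core of the RBPJ motif, TGGGAA on either strand, occurred in 0 of the 9 and in 25.6% of all promoters. Matches describe these windows and are not measured binding sites. The Notch1 window lies around a RefSeq start inside the span that GENCODE gives the gene. The Dll1 gene has 2 promoters in the table, and none is given there for Hes1 and Dtx4.

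By 3′ UMI counts, which tag each molecule once and were not divided by length, Hes1 was by far the most abundant of the 10 genes, and it stood higher in the knockout library. The receptors, ligands and other targets among the 10 were sparse, at 21.4 CPM or below. Atoh1 was absent from the knockout library's counts and rare in the control library. Of the 10 genes, 6 reached 10 CPM in at least 1 library, the level at which a gene was called measured, and 2 of these 6, Hes1 and Notch2, exceeded the control level by at least 1.5-fold in the knockout library, and 0 were lower by that fold. Over all 7912 measured genes, 8.06% were higher and 10.7% lower by that fold, a threshold of size and not a test. The median log2 ratio of the 6 genes was 0.52, and that of all measured genes was -0.06. Scaling by TMM factors gave 788 higher and 663 lower genes, against 638 and 844 by CPM, and 3 of the 6 genes were then higher, with Nrarp added.

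**Figure D1:**
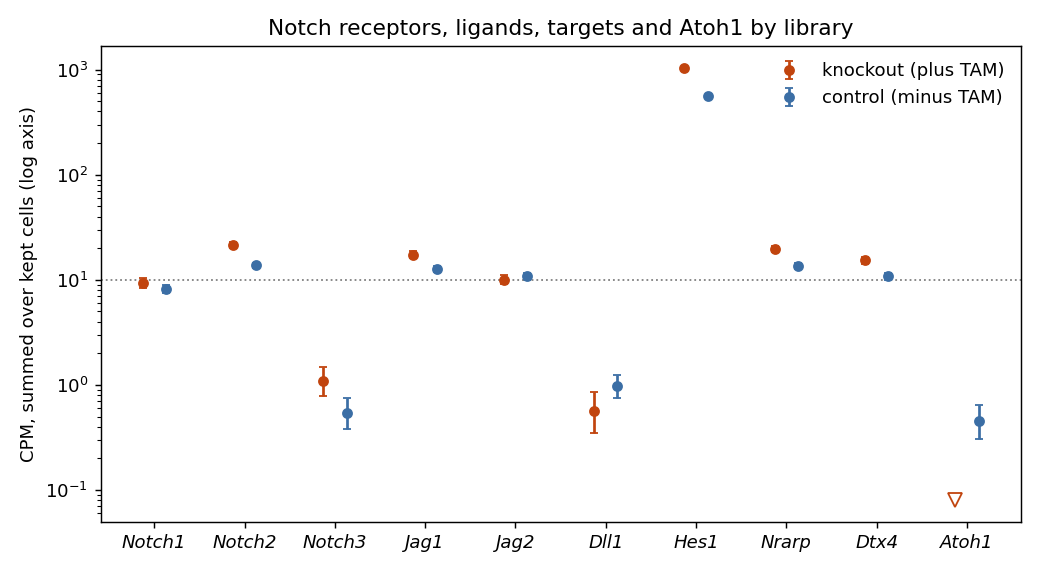
CPM of each gene on a log axis, summed over the kept cells of the knockout library (left point) and the control library (right point), with exact Poisson intervals. The dotted line marks 10 CPM and the open triangle the limit of 0.0803 CPM that a floor of 3 counts gives for 0 Atoh1 UMIs in the knockout library. Hes1 lies far above the rest, at 1036 and 559 CPM.

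Among the receptors, Notch2 was the most abundant. Notch2 (ENSMUSG00000027878, chromosome 3 from 98013527 to 98150361, plus strand of mm10) stood at 21.4 CPM in the knockout library, from 798 UMIs, and at 13.7 CPM in the control library, from 940 UMIs. Its log2 ratio of knockout over control was 0.64 (interval 0.50 to 0.78), and a UMI was found in 29.0% of knockout and 21.5% of control cells. It was under 1.5-fold in 3 other settings, with log2 ratios of 0.45 relative to genes of similar transcript length, 0.49 in clusters shared by both libraries and 0.51 with control cells reweighted by knockout cluster shares. In barcodes under 2000 UMIs, which were not kept, Notch2 stood at 50.9 CPM in the knockout, from 22 UMIs, and 18.6 CPM in the control library, from 15 UMIs, and the part of free RNA was not tested. Cells differ in depth, so each was also thinned at random to 5000 UMIs, which left 1387 knockout and 2487 control cells. Then 10.2% (8.63 to 11.9) of knockout cells and 5.75% (4.87 to 6.74) of control cells held a Notch2 UMI. Such intervals cover the cells of 1 library each, and cells are not replicates.

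Notch1 (ENSMUSG00000026923, chromosome 2 from 26457903 to 26516663, minus strand), the main receptor of crypt stem cells together with Notch2, stood at 9.40 CPM in the knockout and 8.18 CPM in the control library, just under the level called measured. Its log2 ratio was 0.20 (0.0038 to 0.40), and set against genes with transcripts of similar length it was 0.0056. Without cells of a shared barcode it was 0.16, with an interval from -0.06 to 0.38 that spans 0. In barcodes under 2000 UMIs Notch1 stood at 39.3 CPM in the knockout, from 17 UMIs, and 18.6 CPM in the control library, from 15 UMIs. After thinning, 5.62% (4.47 to 6.97) of knockout and 3.94% (3.21 to 4.78) of control cells held a UMI, with overlapping intervals. Notch3, a receptor better known from vascular smooth muscle, had 41 UMIs in the knockout and 37 in the control library, or 1.10 and 0.539 CPM, a log2 ratio of 1.02 (0.35 to 1.71). With control cells reweighted by knockout cluster shares it was 0.11, and in the shared clusters it was 0.84 with an interval from -0.02 to 1.73. Notch1, Notch3, Dll1 and Nrarp overlap other annotated genes on the opposite strand, whose reads cannot be told apart if strand was ignored in counting, and the sources do not state that setting. Notch1, Notch2 and Jag2 overlap annotated genes on the same strand, which no strand setting separates.

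Of the ligands, Jag1 (ENSMUSG00000027276, chromosome 2 from 137081456 to 137116644, minus strand) stood at 17.3 CPM in the knockout and 12.7 CPM in the control library, a log2 ratio of 0.45 (0.30 to 0.60). Its UMIs were concentrated in few cells. In the knockout library 19.4% of cells held a Jag1 UMI, with a mean of 2.25 per such cell and up to 21 in 1 cell. Of the knockout library's 647 Jag1 UMIs, 351 (54.3%) lay in cluster 7, a cluster of 260 knockout and 35 control cells led by Inhba, S100a7a and Sprr1a. Restricted to the 6 clusters with 50 or more cells in each library, a choice made after seeing the data that leaves cluster 7 out, Jag1 was on the other side, at 8.63 CPM in the knockout and 13.2 CPM in the control library, a log2 ratio of -0.61. Of the 374 control Jag1 UMIs in these clusters, 291 lay in cluster 3. Taken singly, 3 of the 6 clusters had a Jag1 log2 ratio above 0, and reweighting control cells by knockout cluster shares gave 0.58. Jag2 (ENSMUSG00000002799, chromosome 12 from 112907819 to 112929776, minus strand) stood at 10.1 CPM in the knockout and 10.8 CPM in the control library, with an interval of the log2 ratio from -0.29 to 0.08 that spans 0. Pooled over the shared clusters its log2 ratio was -0.28 (-0.51 to -0.05). Taken singly, 5 of these 6 clusters had a Jag2 log2 ratio above 0, and 0 had an interval away from 0. Reweighting control cells by knockout cluster shares gave Jag2 0.14.

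Dll1, the Delta ligand of secretory precursors, was rare, with 21 UMIs in 18 knockout cells and 67 UMIs in 52 control cells. This is 0.562 CPM in the knockout and 0.977 CPM in the control library, a log2 ratio of -0.80 (-1.58 to -0.07), and after thinning the shares of cells with a UMI were 0.433% and 0.483% with overlapping intervals. Without cells of a shared barcode the log2 ratio was -0.65 (-1.52 to 0.14). Dll4, the other Delta ligand of the crypt, stood at 1.02 CPM in the knockout and 0.991 CPM in the control library. Reweighting control cells by knockout cluster shares gave Dll1 a log2 ratio of 0.97, which rests on few counts. In clusters 4, 5 and 7, control cells (87, 65 and 35) held 0 Dll1 UMIs and knockout cells (377, 278 and 260) held 5, 1 and 10. No cell type known to lack Notch genes was among the cells, so no background share from free RNA could be set beside these shares. In barcodes under 2000 UMIs, which were not kept, Dll1 had 1 UMI in each library.

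Hes1 (ENSMUSG00000022528, chromosome 16 from 30064384 to 30067796, plus strand) had 38703 UMIs in the knockout and 38378 in the control library, although the knockout library held the fewer cells. Its level was 1036 CPM (1026 to 1046) in the knockout and 559 CPM (554 to 565) in the control library, 1.85-fold higher with a log2 ratio of 0.89 (0.87 to 0.91), and of 0.84 without cells of a shared barcode. The knockout value was the higher one at each percentile given here. The CPM of single cells had a 10th percentile of 49.5, a median of 770 and a 90th percentile of 2507 in the knockout library, and of 38.2, 359 and 1530 in the control library. After thinning, 82.8% (80.7 to 84.7) of knockout and 74.2% (72.4 to 75.9) of control cells held a Hes1 UMI, and 43.9% of knockout and 23.6% of control cells held 5 or more. The tenth of cells with the most Hes1 held 33.2% of its thinned UMIs in the knockout and 38.9% in the control library. In barcodes under 2000 UMIs Hes1 stood at 793 CPM in the knockout and 689 CPM in the control library, and the part of free RNA in its level was not tested. Among cells with and without an N6amt1 UMI after thinning, the mean Hes1 count was 6.65 (43 cells) and 5.44 (1344 cells) in the knockout library, and 3.05 (382 cells) and 3.05 (2105 cells) in the control library.

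**Figure D2:**
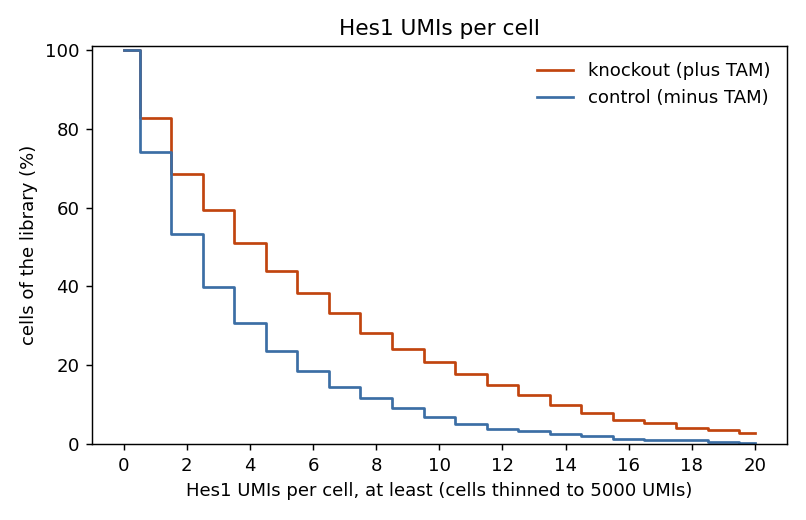
Share of cells (y axis, percent) that held at least a given number of Hes1 UMIs (x axis) after thinning to 5000 UMIs. The knockout line lies above the control line from 1 UMI (82.8% against 74.2%) through 10 UMIs (20.8% against 6.84%).

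Of the 10 genes, the other response genes, Nrarp and Dtx4, stood on the same side at lower levels. Hes6, a target in the wider list described below, stood on the other side, at 453 CPM in the knockout and 568 CPM in the control library. Its log2 ratio was -0.33 (-0.35 to -0.30). That list places Dtx4 under receptor traffic. Nrarp (ENSMUSG00000078202, chromosome 2 from 25180758 to 25183339, plus strand), whose product destabilises the Notch complex as negative feedback, was at 19.6 CPM in the knockout and 13.5 CPM in the control library, a log2 ratio of 0.54 (0.40 to 0.68) and under 1.5-fold. Without cells of a shared barcode it was 0.67, past that fold, and in the 6 clusters shared by both libraries it was 0.13. In barcodes under 2000 UMIs Nrarp stood at 34.7 CPM in the knockout, from 15 UMIs, and 7.43 CPM in the control library, from 6 UMIs. Dtx4 (ENSMUSG00000039982, chromosome 19 from 12466338 to 12501454, minus strand), a Deltex ubiquitin ligase that acts on Notch traffic, was at 15.3 CPM in the knockout and 10.8 CPM in the control library, a log2 ratio of 0.51 (0.35 to 0.66). After thinning, Nrarp had a UMI in 8.15% (6.76 to 9.71) of knockout and 5.59% (4.72 to 6.57) of control cells. Dtx4 had one in 8.22% (6.83 to 9.79) and 5.63% (4.76 to 6.61).

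Atoh1 (ENSMUSG00000073043, chromosome 6 from 64729125 to 64731245, plus strand) had 0 UMIs in the knockout and 31 UMIs in the control library, and its control level was 0.452 CPM (0.307 to 0.641). Against a floor of 3 counts in the knockout library it was at least 5.63-fold lower there, a log2 ratio of -2.49, and the exact counting limit nearest to 0 was -2.11. The 31 UMIs lay in 21 of 2629 control cells, with up to 5 in 1 cell, and 0 of 1481 knockout cells held a UMI, which by the same floor allows a share of up to 0.203% of cells with a UMI and sets no limit on cells that express the gene. Thinning left 0 of 1387 knockout and 8 of 2487 control cells with a UMI (0.322%, interval 0.139 to 0.633). Without cells of a shared barcode 0 knockout and 29 control UMIs remained, a log2 ratio of -2.11 at the floor. By cluster, control Atoh1 UMIs numbered 9 in cluster 1, 7 in cluster 10, 6 in cluster 2, 5 in cluster 4, 3 in cluster 3 and 1 in cluster 9. Clusters 1 and 2 had 16 and 9 cells in the knockout library, against 674 and 651 in the control library, and the part of these clusters in the Atoh1 difference was not tested. The 21 control cells with Atoh1 had Hes1 at 453 CPM, against 560 CPM in the 2608 other control cells, and Jag1 at 30.3 CPM, from 18 UMIs in 6 cells, against 12.5 CPM. Of their 22 UMIs of the goblet gene Tff3, 20 lay in 1 cell, and they held 0 UMIs of Dll1 and of the mucin gene Muc2.

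The secretory genes around Atoh1 were mostly near the floor in both libraries. Of 23 listed genes 4 were measured, with 0 higher and 1 lower by 1.5-fold, beside 8.06% and 10.7% of all measured genes. The lower one was Agr2, a folding factor of goblet cells, at 7.36 CPM in the knockout and 11.9 CPM in the control library. Sox4, at 663 and 629 CPM, Hes6, at 453 and 568 CPM, and Foxa3, at 43.1 and 55.6 CPM in the knockout and control libraries, were the other measured ones. Below 10 CPM, Tff3 stood at 3.51 CPM in the knockout and 9.42 CPM in the control library, the mucus gene Fcgbp at 1.04 and 3.13 CPM, and Creb3l1 at 1.18 and 1.60 CPM. The Tff3 levels rest on few cells. Of 131 knockout Tff3 UMIs in 18 cells, 113 lay in 1 cell, and of 646 control UMIs in 97 cells, 142 lay in 1 cell. Muc2 stood higher in the knockout library, with 56 UMIs there and 66 in the larger control library and a log2 ratio of 0.64 (0.10 to 1.18). These UMIs lay in 18 knockout and 12 control cells, and the interval does not allow for such clumping. The fate genes Gfi1 and Spdef had 8 and 2 UMIs in the knockout library, and 5 and 2 in the control library. Neurog3, of the enteroendocrine lineage, had 0 UMIs in the knockout and 1 in the control library.

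Levels were then followed across clusters of cells that were computed without the genes of the Notch and secretory lists. The libraries shared few clusters. Of 12 clusters, 6 had 50 or more cells in each library, with 1124 knockout and 1112 control cells, and a cluster held mostly by 1 library may be that library and not a cell type. Hes1 varied more between clusters than between libraries. In the knockout library it ran to 1908 CPM in cluster 8, led by Prss56, Pnliprp1 and Pnliprp2. It was 199 CPM in cluster 10, a colonocyte-like cluster by its markers Car1, Clca4a and Muc3. That value rests on 47 knockout cells, under the 50 named above. A shared barcode was carried by 24 of these 47 cells and by 70 of the 189 knockout cells of cluster 8. In the control library it was 1397 CPM in cluster 5, led by Cxcl14, and 272 CPM in cluster 10. Control cluster 2, with 651 cells led by Dnah7b and Golga7b, had 301 CPM.

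Within the 6 shared clusters the Hes1 difference was uneven. Cluster 3 is called G2/M-like, with all 10 G2/M markers 2-fold or more above other cells. So were 9 S phase markers, and the name does not set G2/M apart from S phase. In cluster 3 Hes1 stood at 972 CPM in the knockout and 479 CPM in the control library, a log2 ratio of 1.02 (0.97 to 1.08). It stood at 826 and 502 CPM without cells of a shared barcode, 38 of 128 knockout and 78 of 476 control cells there. In cluster 8 it stood at 1908 CPM in the knockout and 1185 CPM in the control library, a log2 ratio of 0.69. Without cells of a shared barcode it stood there at 1789 and 1159 CPM. In clusters 4 and 6 the log2 ratios were 0.16 and 0.19. In cluster 5 Hes1 was at 1376 CPM in the knockout and 1397 CPM in the control library, with an interval from -0.09 to 0.04. In cluster 9, whose median of 3764 UMIs per cell was the lowest of the 12, the interval also spanned 0. Reweighting control cells by the cluster shares of the knockout library lowered the Hes1 log2 ratio to 0.34, under 1.5-fold. The same weighting left 0 of the 6 measured genes past 1.5-fold, while 4.15% of all genes were still higher and 1.79% lower, and it rests on 35 to 97 control cells in the clusters that hold most knockout cells.

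**Figure D3:**
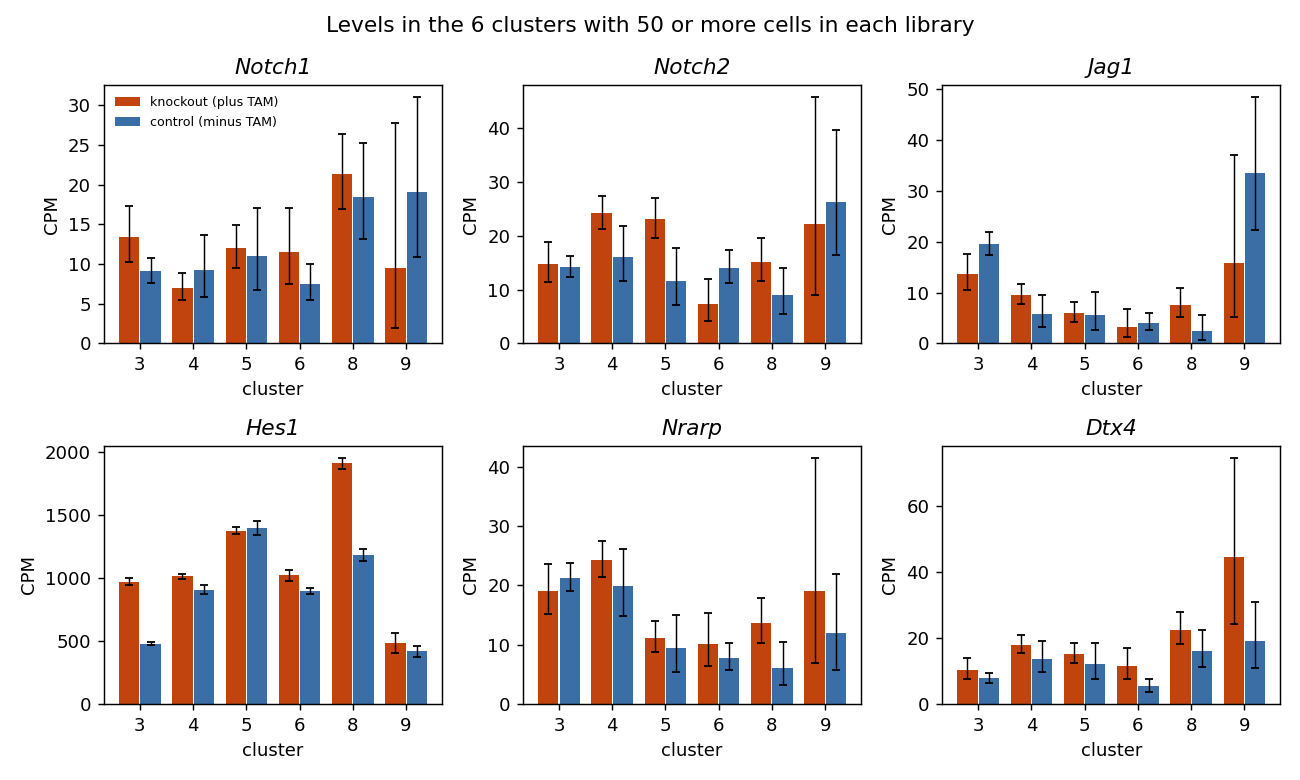
CPM of Notch1, Notch2, Jag1, Hes1, Nrarp and Dtx4 (y axes) in the 6 clusters with 50 or more cells in each library (x axes), knockout bars left of control bars, with exact Poisson intervals. The Hes1 bars differ most in clusters 3 and 8 and lie close together in cluster 5 (1376 and 1397 CPM).

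The sparser genes followed other patterns over the same 6 clusters. Dtx4 had a ratio above 1 in all 6, with log2 ratios from 0.33 to 1.22, of which the intervals of clusters 6 and 9 lay above 0. Without cells of a shared barcode those of clusters 3 and 6 did, and cluster 9 had 1.03 (-0.14 to 2.18). Notch2 was higher in clusters 4 (24.2 against 16.1 CPM) and 5 (23.1 against 11.6 CPM) and lower in cluster 6 (7.42 against 14.0 CPM), knockout against control, each with an interval away from 0. Jag1 was lower in the G2/M-like cluster 3, at 13.6 CPM in the knockout and 19.6 CPM in the control library, and higher in cluster 8, at 7.61 CPM from 30 UMIs against 2.37 CPM from 5 UMIs. Nrarp had an interval above 0 in cluster 8 only among the 6, at 13.7 CPM in the knockout and 6.16 CPM in the control library.

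Hes1 and Jag1 were distributed in opposite ways over clusters. Over the 16 sums of cells of 1 cluster and 1 library with 50 or more cells, Pearson's r of log2(CPM + 1) was -0.68, and it was -0.65 over the 7 knockout sums and -0.85 over the 9 control sums. It was -0.66 without cells of a shared barcode. The sums share their 2 libraries and normalization, so this is a description. Jag1 was highest in knockout cluster 7, at 46.5 CPM beside 582 CPM of Hes1, and lowest in control cluster 8, at 2.37 CPM beside 1185 CPM of Hes1. The other targets did not track Hes1 over these sums, with r of -0.19 for Nrarp and 0.02 for Dtx4, while Notch1 had r of 0.45 with Hes1 and Notch2 had -0.06. Jag1 and Nrarp had r of 0.61.

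**Figure D4:**
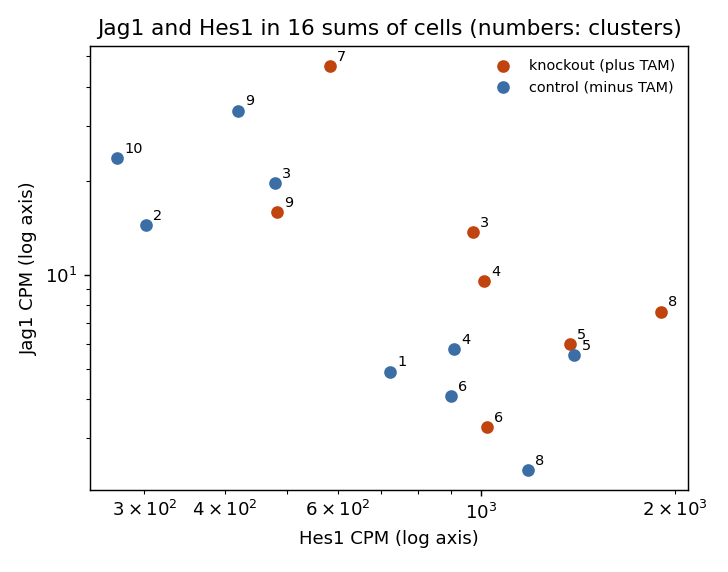
Jag1 CPM (y axis) against Hes1 CPM (x axis), both on log axes, for 16 sums of cells, 7 of the knockout and 9 of the control library, each labelled with its cluster. Jag1 tends to be lower where Hes1 is higher, with scatter, as between control cluster 10 (272 CPM of Hes1, 23.6 CPM of Jag1) and control cluster 8 (1185 and 2.37 CPM).

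Pairs with Hes1 were found together in single cells about as often as the shares of cells give, though Hes1 is in so many cells that its pairs cannot exceed that by much. With each cell thinned to 5000 UMIs, the number of cells with a UMI of both genes was set against the product of the 2 shares, for the pairs where that product was at least 50 cells, 6 of 45 pairs in each library, all of which include Hes1. Observed over product ran from 0.930 to 1.13 in the knockout and from 0.850 to 1.11 in the control library, and from 0.955 to 1.05 and from 0.918 to 1.06 when products were taken within clusters. The highest in each library was the pair of Notch1 and Hes1. Of knockout cells with a Notch1 UMI 93.6% also held Hes1, and of those without 82.1% did, and in control cells the shares were 82.7% and 73.8%. The lowest control pair was Jag1 and Hes1, where 63.1% of cells with and 74.9% of cells without a Jag1 UMI held Hes1. Among sparser pairs, Notch2 and Jag1, named after their values were seen, were together in 20 knockout cells, where the product is 9.05, and in 16 control cells, where it is 8.57. Taken within clusters, observed over product for this pair was 2.05 in the knockout and 1.79 in the control library.

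Hes1 counts per cell were then averaged over cells with and without a UMI of another gene. Knockout cells with a Notch1 UMI averaged 9.12 thinned Hes1 UMIs (78 cells) and those without 5.26 (1309 cells). Control cells averaged 4.4 with Notch1 (98 cells) and 3.00 without (2389 cells). Cells with a Jag1 UMI averaged 4.01 Hes1 UMIs in the knockout library (89 cells), against 5.58 without, and 2.09 in the control library (149 cells), against 3.12 without. Within clusters of at least 10 cells on each side, cells with Notch1 had the higher Hes1 mean in 3 of 3 knockout and 2 of 4 control clusters, and cells with Jag1 in 1 of 2 knockout and 0 of 4 control clusters. Across single cells, Spearman's coefficient of Notch1 and Hes1 was 0.135 over 1387 knockout cells and 0.0729 over 2487 control cells. That of Jag1 and Hes1 was -0.0781 in the knockout and -0.0864 in the control library. All are weak in counts this sparse.

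Few cells showed both a receptor and a ligand at this depth, though more in each library than the product of the shares gives. No product within clusters was taken for this. After thinning, 16.2% (14.3 to 18.2) of knockout and 9.49% (8.37 to 10.7) of control cells held a UMI of Notch1, Notch2 or Notch3, and 10.8% (9.23 to 12.6) and 11.4% (10.2 to 12.7) held one of Jag1, Jag2 or Dll1. Both kinds were found in 2.52% of knockout cells, where the product of the shares is 1.75%, and in 1.85% of control cells, where it is 1.08%. Cells with a receptor and no ligand UMI averaged 6.99 Hes1 UMIs in the knockout and 3.94 in the control library, and cells with a ligand and no receptor UMI 4.05 and 2.35. Cells with neither averaged 5.37 in the knockout and 3.07 in the control library, so Hes1 was common in cells where no receptor molecule was captured.

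The wider pathway was read from a list of 69 genes, the 10 included, of which 37 were measured. By 1.5-fold, 5 were higher and 4 lower in the knockout library, beside 8.06% and 10.7% of all measured genes, and the median log2 ratio was 0.21. The lists and members were chosen with earlier results of these data known, and nothing particular to them is claimed from these counts. Of the enzymes that add sugars to Notch, Poglut1, which attaches glucose to the receptor, stood at 18.8 CPM in the knockout and 30.1 CPM in the control library, and radical fringe, Rfng, at 13.6 and 20.6 CPM, while Lfng was at 17.9 and 15.2 CPM. Of the ligases that start ligand uptake, Neurl1a stood at 10.4 CPM in the knockout and 5.26 CPM in the control library, the largest log2 ratio of the measured list (0.99, interval 0.78 to 1.20), and Neurl3, the most abundant, at 48.6 and 42.4 CPM. Furin, the convertase that cuts the receptor before it reaches the surface, stood at 34.2 CPM in the knockout and 20.2 CPM in the control library. The proteases that cut the bound receptor were closer to even, with Adam10 at 45.5 and 32.7 CPM, and the gamma-secretase subunit Psenen, the most abundant of them, at 209 and 181 CPM.

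Among genes of receptor traffic, Dtx3l stood at 17.9 CPM in the knockout and 10.7 CPM in the control library and was the 1 of 7 past 1.5-fold, and the ligase gene Nedd4 was the most abundant at 141 and 117 CPM. In the nuclear complex, 0 of 10 measured genes were higher and 2 lower, beside 8.06% and 10.7% of all measured genes. These were Snw1, a splicing factor that also binds the Notch intracellular domain, at 98.3 CPM in the knockout and 172 CPM in the control library (log2 ratio -0.81), and the acetyltransferase gene Kat2a, at 33.9 and 53.7 CPM. Rbpj itself had a log2 ratio of 0.14, from 453 knockout and 755 control UMIs, with an interval from -0.03 to 0.31, and Hdac1, whose knockout level was the highest of the group, stood at 179 CPM in the knockout and 131 CPM in the control library. Neurl1a, Furin, Dtx3l, Snw1, Psenen, Rbpj and Dll4 overlap genes on the opposite strand, with the limit named above. Neurl1a and Nedd4 also overlap genes on the same strand.

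**Figure D5:**
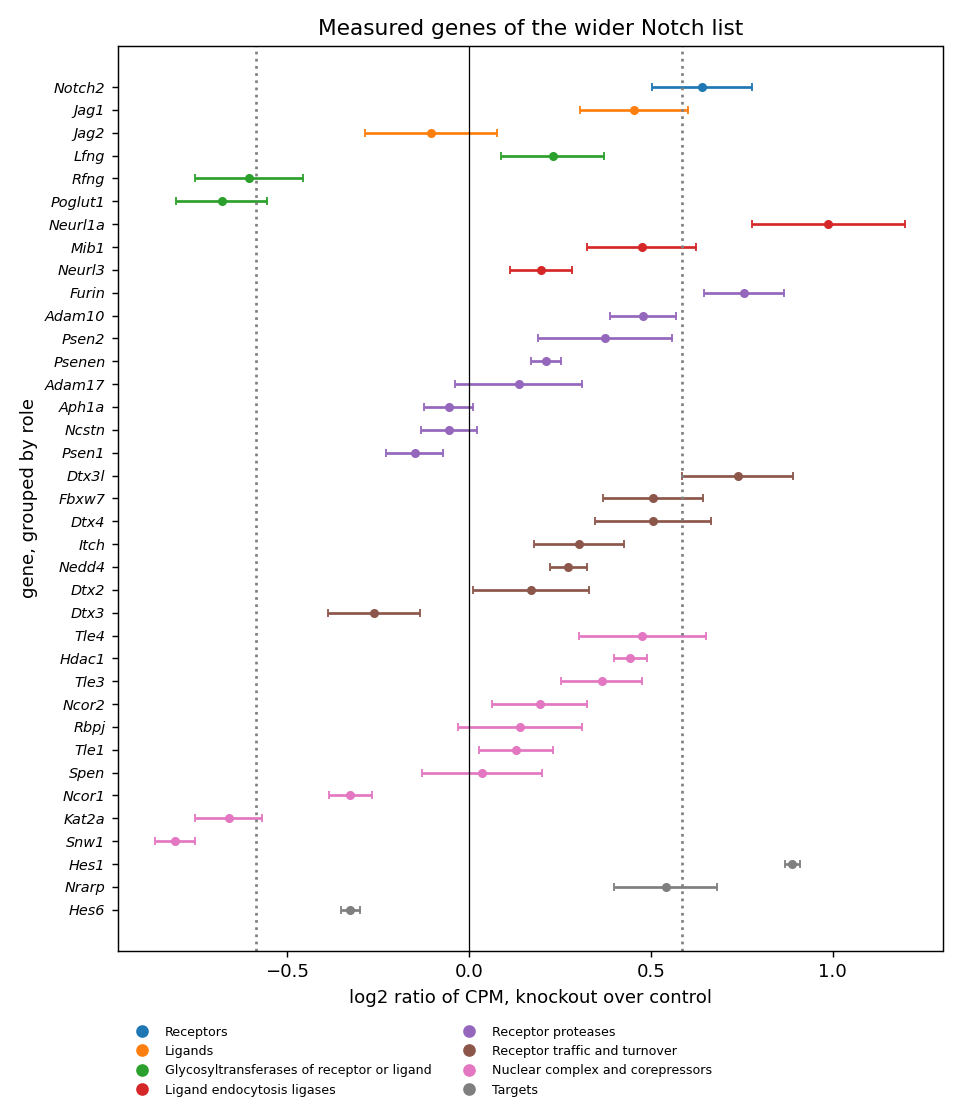
Log2 ratio of CPM, knockout over control (x axis), for the 37 measured genes of the wider list (y axis), coloured by role, with exact counting intervals. Dotted lines mark 1.5-fold. Hes1, Neurl1a, Furin, Dtx3l and Notch2 lie past the upper line and Snw1, Poglut1, Kat2a and Rfng past the lower one.

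Genes outside the list whose levels were most like these over the 16 sums were ranked by Pearson's r of log2(CPM + 1) among 3196 genes that reached 50 CPM in either library. For Hes1 they were Pdlim4 (r of 0.955), Cyba (0.942), Csrnp1 (0.940), Paip1 (0.938) and Slc25a25 (0.937). For Notch1 they were Tbx3 (0.898), Anapc13 (0.839), Ppp1r37 (0.813), Blvrb (0.809) and Slc30a2 (0.809), and for Jag1 Ddit4 (0.887), Atp2b1 (0.879), Tm4sf1 (0.868), Prkab1 (0.866) and Ifngr1 (0.853). The highest of 3196 coefficients over 16 points are picked for their size and are given as a ranking only.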

How the data were processed

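Single cells were profiled with 10x Chromium 3′ v2 chemistry, per the labels' protocols. The authors deposited UMI counts per gene and barcode, and the file headers name Cell Ranger 3.1.0 and the submitters' processing notes mm10. The annotation release and strand setting are not given in the sources used here. The 3′ counts tag each molecule once and were not divided by transcript length.

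Barcodes were kept from 1000 genes and 2000 UMIs upwards, if mitochondrial UMIs made up no more than 20%. Scrublet (scanpy 1.11.5) marked only 4 knockout and 1 control cells by itself, so the highest scores were removed, 0.8% per 1000 cells, 18 and 58 cells. Counts were summed per library and scaled to CPM. Ratios are knockout over control with conditional binomial intervals, shares have Clopper-Pearson intervals and levels exact Poisson intervals, all at 95% and checked on simulated data. A library at 0 took a floor of 3 counts. Clustering used 2000 variable genes, 30 principal components, 15 neighbours and Leiden resolution 0.8 (leidenalg 0.10.2), without the Notch and secretory lists. A cluster was named when 3 or more markers of a class were 2-fold or more above other cells at 10 or more CPM, with 2 or more among its 10 leading genes and more than of any other class, numbers set with the data known. Clusters 3 and 10 are named in the text, and cluster 1, which met the rule as Paneth-like by Itln1, Ang4 and Reg4, is given by number. Alternatives were other cell filters, no doublet removal, other scalings, other minimum levels, the mean of CPM per cell, and leaving out cells of a shared barcode. TMM factors came from edgeR 4.0.16 and size factors from DESeq2 1.42.0, with no test. Positions come from GENCODE M21 (mm10). All 10 genes are named, and of the wider list each measured gene past 1.5-fold and the most abundant of each role. Of the secretory list, Atoh1 and every gene of 1 CPM or more were to be named, and Gfi1, Spdef and Neurog3 were added after their values were seen. The members and lists were chosen with earlier results of these data known.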

Additional observations from a re-analysis of the deposited data

How the results depend on the processing

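No paired analysis was possible because each group is 1 library, and no replicate could be left out for the same reason. The count of 2 genes past 1.5-fold of the 10 became 5 by the mean of CPM per cell, 0 with control cells weighted to knockout cluster shares, 1 at a minimum of 50 CPM, 4 without a filter on low genes and 0 at 2-fold. The wider list's 9 became 2, 3, 21 and 0 under the last 4 of these, out of 37, 11, 64 and 37 genes compared. The share of all genes past the fold was 18.7% in the main setting. It was 19.1% by the mean of CPM per cell, 5.94% with cluster weighting and 15.04% at a minimum of 50 CPM. Without a filter on low genes it was 36.4%, and at 2-fold 5.28%. The secretory list's 1 became 2 without cells of a shared barcode. Past their counting intervals and to the other side went Dll1 under cluster weighting (log2 ratio 0.97) and Jag1 in shared clusters only (-0.61). The Dll1 value rests on few counts, with 0 control UMIs in clusters 4, 5 and 7. The shared clusters leave out cluster 7, which holds most knockout Jag1 UMIs, and under cluster weighting Jag1 was at 0.58. The cause was not tested for Jag1 or for the other changes. Over 10 settings the log2 ratio was 0.34 to 1.08 for Hes1, 0.45 to 0.81 for Notch2, 0.13 to 0.69 for Nrarp, 0.37 to 0.87 for Dtx4, 0.11 to 1.58 for Notch3 and 0.01 to 0.27 for Notch1. Relative to genes of similar length the count was also 2, with Nrarp (0.69) in place of Notch2, beside 17.1% of all genes. The settings of shared clusters and of transcript length were chosen after seeing the data. Depth limits Notch3, Dll1 and Atoh1, each under 70 UMIs per library.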

Other observations

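Below 10 CPM, where counts are small, several genes of the wider list stood further apart than most measured ones. They are named here after their values were seen. Without a filter on low genes, 36.4% of all genes and 21 of 64 genes of the wider list were past 1.5-fold, so nothing particular to Notch genes is claimed. Hey1, a Notch target of the same family as Hes1, had 66 UMIs in the knockout and 24 in the control library, 1.77 and 0.35 CPM. Maml2, a coactivator of the nuclear complex, stood at 6.45 CPM in the knockout and 2.99 CPM in the control library, and Maml3 had a log2 ratio of 0.75 (0.52 to 0.98). Numb, an inhibitor of the receptor, stood at 8.30 CPM in the knockout and 4.99 CPM in the control library. In the other direction, the sugar transferase gene Mfng had 7 UMIs in the knockout and 67 in the control library, and Hes7, known from somite formation, 20 and 94. Olfm4, which Notch controls in the small intestine, had 1 UMI in the knockout and 0 in the control library, and Hes5 had 2 and 4. Among secretory genes, the goblet gene Clca1 had 28 UMIs in 8 knockout cells and 5 UMIs in 5 control cells. Spink4, also of goblet cells, had 0 UMIs in the knockout and 19 in the control library.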
